A study of Mus musculus with 8 samples.

Results

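Podocytes and parietal epithelial cells (PECs) were compared in EGM-MV, a growth-factor medium formulated for microvascular endothelial cells. The comparison used 4 of the 8 arrays of the study, 2 of podocyte cultures and 2 of PEC cultures, chosen by cell type and medium alone, and it covered all 22237 genes of the normalized table. The other 4 arrays measured the same cultures kept in RPMI, a basal medium, and served to test whether a difference was larger in EGM-MV than in RPMI. Fetal calf serum was present in both media and made up a higher share of EGM-MV.

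All cells came from female mice on a mixed background (75% Sv129). A tetracycline-inducible transactivator (rtTA) was driven either by the podocin promoter (Pod-rtTA, for podocytes) or by a rabbit podocalyxin promoter fragment (PEC-rtTA, for PECs), LC1 supplied the doxycycline-dependent Cre recombinase, and the R26R reporter supplied lacZ. Doxycycline was given to every mouse to label the cells. Podocytes were grown out of decapsulated glomeruli and PECs out of capsulated glomeruli, always in EGM-MV, and were sorted for the lacZ product. Each cell type was represented by 2 independent cultures, numbered 2 and 3, and the arrays were made after repeated passages. Cell type, mouse line and glomerular preparation cannot be told apart in this design. The study's text describes cells obtained from adult mice, with no exact age.

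Podocytes are the highly branched cells that cover the glomerular capillaries. Their interdigitating foot processes, bridged by the slit diaphragm, form the outermost layer of the filtration barrier, and in the adult kidney they hardly divide. PECs are flat cells on the inner side of Bowman's capsule that share a developmental origin with podocytes, and they are known to proliferate in crescentic glomerulonephritis and in focal segmental glomerulosclerosis. Both cell types lose much of their specialised shape in culture. A table of the differences between them in one medium therefore describes cultured derivatives of the sorted cells.

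The deposited table identified genes by Ensembl ID without names, and 0 of its 22237 IDs could be matched to a gene symbol. The markers of podocytes, PECs and other glomerular or tubular cells were consequently not checked, and the cell type labels rest on the sort. Apart from 2 IDs on each side, genes are described by their rank and their values. Values were log2 intensities in arbitrary units, on which a difference of 1 is a 2-fold change. A level of 6 was taken as the level near background, close to the median of 6.27 on each of the 4 EGM-MV arrays. It was chosen with earlier results of these data known and without detection calls, and every bound and count set by this level depends on it. Because all arrays were brought to nearly the same distribution, each difference is relative to the other genes. In cultures measured as a whole, fewer cells of a type and less RNA per cell cannot be told apart.

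The cell type accounted for most of the variation among the 4 EGM-MV arrays. Of the variance summed over all genes, 89.0% lay between the cell types, 8.88% between the PEC cultures and 2.10% between the podocyte cultures. The podocyte arrays correlated across genes at r = 0.998, and the SD of their difference was 0.123 on the log2 scale. The PEC arrays correlated at r = 0.992, with an SD of 0.254. A podocyte array and a PEC array correlated at 0.955 to 0.960, with SDs of 0.566 to 0.604, and the points of these correlations are genes, not independent samples. Differences of at least 2-fold separated the podocyte cultures at 2 genes, the PEC cultures at 187 genes and a podocyte from a PEC culture at 1564 to 1854 genes.

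**Figure D1:**
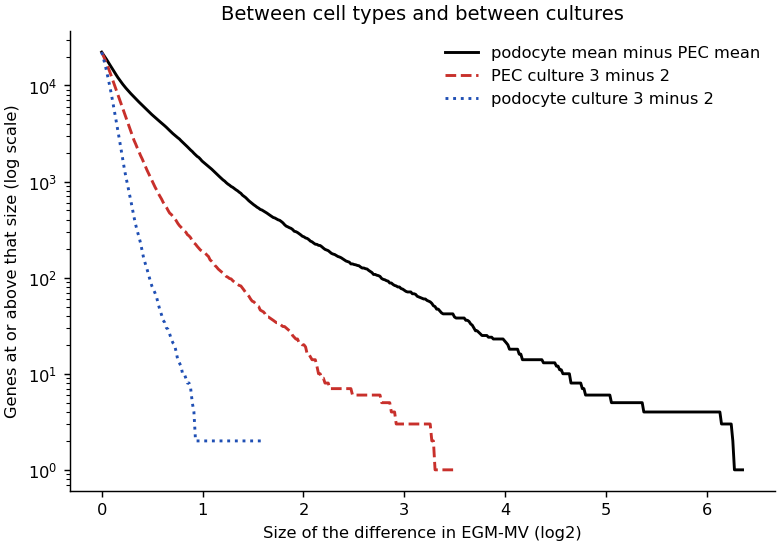
Number of genes (vertical axis, log scale) whose difference in EGM-MV is at least the size on the horizontal axis (log2), for podocyte mean minus PEC mean, for PEC culture 3 minus 2 and for podocyte culture 3 minus 2. The podocyte cultures reach 1 on the log2 scale at 2 genes and the PEC cultures at 187 genes, and the line between cell types lies to the right of both and extends to 6.36.

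Differences between the cell types in EGM-MV were frequent and mostly small, and in the values as deposited the largest ones favoured podocytes. With limma and Benjamini-Hochberg adjustment over all genes, 7151 genes (32.2%) were called at an adjusted p below 0.05. Podocytes were higher at 3700 of them (16.6% of all genes) and lower at 3451 (15.5%). The median size of a called difference was 0.63, and 77.9% of the called genes differed by less than 2-fold. The median over all genes was −0.05. A 2-fold or larger called difference was found at 1577 genes (7.09%), of which 881 were higher and 696 lower in podocytes. This excess depended on the normalization. With quantile normalization repeated, 779 were higher and 765 lower, while under the other alternatives the excess of higher genes remained. Differences of over 4-fold numbered 166 higher and 100 lower, those over 8-fold 49 and 25, and those over 16-fold 16 and 6. At a further 43 genes the means differed by at least 2-fold without the gene being called.

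Both podocyte arrays lay on the same side of both PEC arrays at 15579 genes (70.1% of those tested), at 6404 above them (28.8%) and at 9175 below them (41.3%). All called genes were among these. The smallest called difference was 0.21, against a median standard error of 0.10 over all genes. With 2 cultures per cell type the p-values measure the spread between those cultures only. That spread was pooled over both cell types and both media and moderated across genes. It is therefore not the spread of the EGM-MV arrays alone, and it does not allow for PEC cultures being less alike than podocyte cultures. The count of calls was 4432 without podocyte EGM-MV replicate 1 and 4642 without replicate 2, while the count of called genes at least 2-fold apart was 1469 without replicate 1 and 1553 without replicate 2. Without podocyte replicate 1 or 2 in both media, 3427 or 3591 genes were called.

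**Figure D2:**
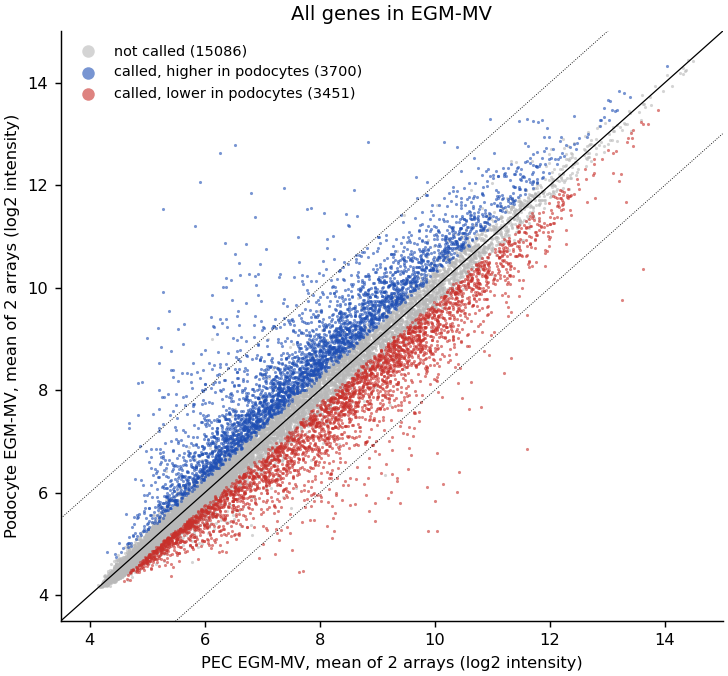
Mean of the 2 podocyte arrays against the mean of the 2 PEC arrays in EGM-MV (both log2 intensity), 1 point per gene, with lines of equal level and of 4-fold difference. Blue points are the 3700 genes called higher and red points the 3451 called lower in podocytes, and the points farthest from the line of equal level lie on the podocyte side.

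Called genes were found mostly among genes measured above background. At a mean level under 5 on the 4 arrays 3.85% of genes were called, between 6 and 7 37.3%, between 8 and 9 58.4%, and at 11 or above 51.6%. Of the 12722 genes with a mean of at least 6 in either cell type, 51.0% were called, 3541 higher and 2945 lower in podocytes. Of the 9515 genes under 6 in both, 6.99% were called, 159 higher and 506 lower. The excess of lower calls at this end lay where a level is near background. Among 1624 genes at 10 or above in both cell types, 791 were called and 104 of those differed at least 2-fold. Over all 22237 genes, 7151 were called and 1577 of those differed at least 2-fold (7.09%). Strongly expressed genes thus also separated the cell types. The choice of 10 in both cell types leaves out genes that were low in either. At a mean level of 10 to 11, called differences of at least 2-fold numbered 125 of 1180 genes. At 11 or above they numbered 75 of 788.

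Few genes went from near background in one cell type to a clear level in the other. A mean of at least 6 was reached only in podocytes at 487 genes, of which 324 were called and 138 differed at least 2-fold. It was reached only in PECs at 678 genes, of which 360 were called and 131 differed at least 2-fold. With at least 8 in one cell type and under 6 in the other, 31 genes marked podocytes and 24 marked PECs, all of them called. The same pattern was present in RPMI at 11 of the 31 and at 8 of the 24. In RPMI the podocyte mean was under 8 at 15 of the 31, and the PEC mean was at or above 6 at 8. Of the 24 genes of PECs, the PEC mean in RPMI was under 8 at 13 and the podocyte mean at or above 6 at 5. The difference itself changed with the medium (interaction adjusted p below 0.05 in limma) at 16 of the 31 and 7 of the 24. Over all genes, 32.2% were called between the cell types and 2.99% had a called interaction. The 31 and 24 genes were chosen for a wide gap in EGM-MV, so both kinds of call partly follow from that choice. The number of interaction calls also depended on the test and on single arrays, as given below.

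The gene with the largest difference was ENSMUSG00000023224. Its log2 intensity was 5.82 and 6.70 in PEC cultures 2 and 3, and 12.70 and 12.53 in podocyte cultures 2 and 3. It was thus near background in PECs and among the strong signals in podocytes. The difference was 6.36 ± 0.29 (SE, n = 2 cultures per cell type, limma, 95% interval 5.68 to 7.04, adjusted p = 1.4e-05), an 82.2-fold higher signal. In RPMI the PEC values were 5.46 and 5.96 and the podocyte values 11.17 and 10.76, and the change of the difference between media did not pass the test (adjusted p = 0.244).

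ENSMUSG00000023959 was nearly as far apart. It measured 6.73 and 6.31 in the PEC cultures and 12.78 and 12.79 in the podocyte cultures. The difference was 6.27 ± 0.13 (SE, limma, adjusted p = 1.68e-06), or 76.9-fold. In RPMI the PEC cultures were at 7.49 and 7.42 and the podocytes at 12.43 and 12.54, and the difference was 5.03. The difference was larger in EGM-MV by 1.23 (limma interaction adjusted p = 0.0186). The larger part of the shift lay in PECs, which were lower in EGM-MV by 0.93 (limma adjusted p = 0.00642). Podocytes were higher in EGM-MV by 0.30, which did not pass the test (limma adjusted p = 0.21). Whether these medium effects differ in size was not tested.

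The genes ranked 3 and 4 on the podocyte side depended strongly on the medium. The one ranked 3 was at 5.10 and 5.44 in PECs and at 11.40 and 11.65 in podocytes, at least 46.1-fold higher when PECs were set to the level of 6. In RPMI the podocyte cultures were at 8.04 and 8.38, and the difference of 6.25 was larger by 3.11 in EGM-MV (interaction adjusted p = 0.00127). The one ranked 4 was at 5.86 and 5.98 in PECs and at 11.84 and 12.27 in podocytes, at least 66.3-fold higher. In RPMI, podocytes reached only 6.77 and 6.89, and the difference there was 0.76 (adjusted p = 0.0053) against 6.13 in EGM-MV (interaction adjusted p = 0.000188). For both genes the PEC arrays of both media stayed within 1 log2 unit of each other, so that the podocyte level was the one that moved with the medium.

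On the PEC side the largest difference of the measured means was that of ENSMUSG00000040405, whose podocyte values lay under the level of 6. The PEC cultures measured 10.05 and 10.01, and the podocyte cultures 5.26 and 5.22. With podocytes set to the level of 6, PECs were at least 16.3-fold higher, and on that scale the gene described next came first. The difference was −4.79 ± 0.35 (SE, limma, 95% interval −5.60 to −3.98, adjusted p = 7.46e-05). In RPMI the PEC cultures were lower and less alike, at 8.78 and 7.46, with podocytes at 5.66 and 5.67. The PEC level was 1.91 higher in EGM-MV (adjusted p = 0.0143), but the change of the difference missed the threshold (−2.33, interaction adjusted p = 0.0539).

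ENSMUSG00000052485 was next on the PEC side, with similar values in both media. It measured 11.68 and 11.53 in PECs and 6.84 and 6.87 in podocytes, a difference of −4.75 ± 0.17 (SE, limma, adjusted p = 6.56e-06) or 26.9-fold. The RPMI values were 11.84 and 11.31 in PECs and 7.47 and 7.26 in podocytes, and the change of the difference did not pass the test (interaction adjusted p = 0.325). The gene ranked 4 behaved differently. It was at 10.27 and 10.50 in PECs and at 6.21 and 5.82 in podocytes in EGM-MV. In RPMI it was at 7.48 and 9.19 in PECs and at 8.48 and 8.48 in podocytes, so that the groups overlapped there. Its difference of −4.37 in EGM-MV stood against 0.14 in RPMI (adjusted p = 0.854), and the change was called (interaction adjusted p = 0.0159).

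**Figure D3:**
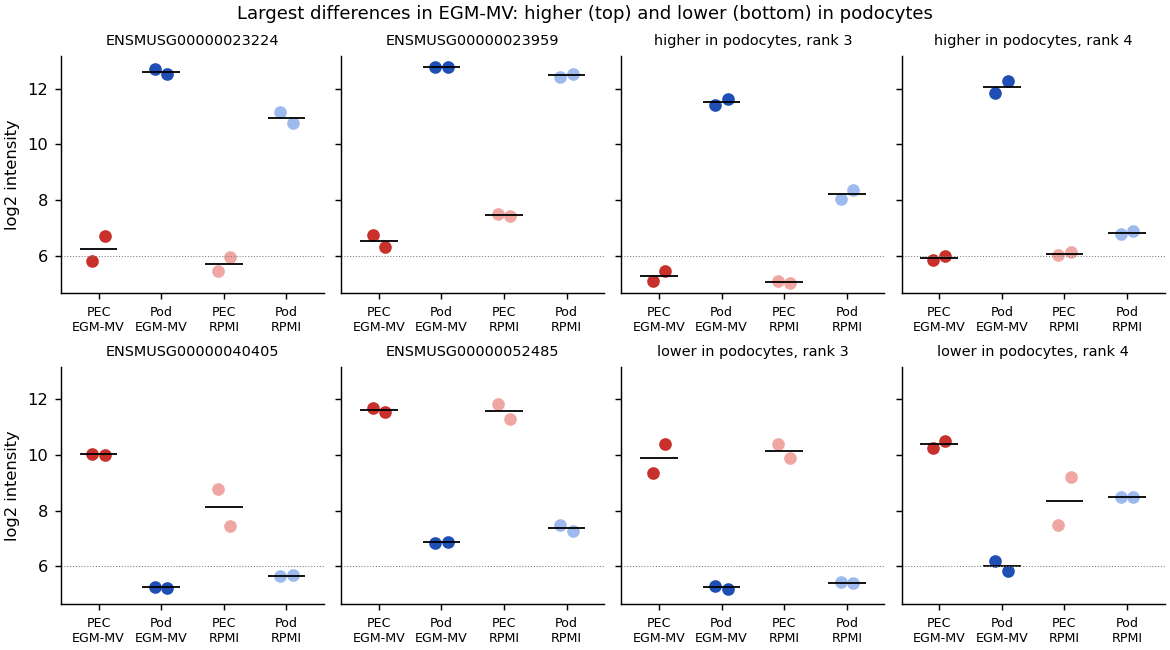
Log2 intensity on every array for the 4 largest differences in EGM-MV in each direction, with 1 point per culture (culture 2 left, culture 3 right), a bar at the mean of 2 and a dotted line at the level of 6. Dark points are EGM-MV and light points RPMI, and the genes ranked 4 in both directions have cell type means far apart in EGM-MV and close to each other in RPMI.

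Further down the podocyte side the pattern of a low PEC level and a high podocyte level recurred with varied dependence on the medium. The gene ranked 5 was at 5.82 and 5.83 in PECs and at 11.21 and 11.17 in podocytes, at least 36.6-fold higher. Its podocyte values in RPMI were 10.14 and 9.84, and the difference of 5.37 was larger in EGM-MV by 0.95 (interaction adjusted p = 0.0196). The gene ranked 11 ran the other way. It was at 5.42 and 5.34 in PECs and at 9.49 and 9.58 in podocytes in EGM-MV, and the podocyte cultures were higher still in RPMI, at 10.45 and 10.72 (interaction −0.98, adjusted p = 0.0177). The gene ranked 13 showed how PEC cultures could differ, with 7.45 and 5.99 in PECs and 10.86 and 10.84 in podocytes. Its difference of 4.13 had an SE of 0.44 (limma adjusted p = 0.000361), and the groups did not overlap.

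On the PEC side, 2 of the genes were strongly expressed in both cell types. The gene ranked 11 was at 13.13 and 13.37 in PECs and at 9.90 and 9.61 in podocytes, 11.3-fold lower in podocytes. In RPMI both cell types were lower, with 10.48 and 10.28 in PECs and 7.11 and 7.31 in podocytes, and the difference changed by −0.33 (interaction adjusted p = 0.505). EGM-MV thus went with a higher level in PECs (by 2.87, adjusted p = 0.000114) and in podocytes (by 2.54, adjusted p = 9.98e-05), and the cell types stayed apart. The gene ranked 13 was at 13.69 and 13.56 in PECs and at 10.64 and 10.08 in podocytes, 9.62-fold lower. The gene ranked 7 was a case of a PEC level that moved with the medium. It was at 10.30 and 9.99 in PECs in EGM-MV and at 7.19 and 6.42 in RPMI, a medium effect of 3.35 (adjusted p = 0.000421), while podocytes were at 6.15 and 6.17 in EGM-MV and at 5.57 and 5.63 in RPMI. The difference of −3.99 in EGM-MV stood against −1.20 in RPMI (interaction −2.78, adjusted p = 0.00664).

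Among the 15 largest differences on each side, those higher in podocytes ranged from 4.03 to 6.36 (16.3-fold to 82.2-fold) and those lower from 3.23 to 4.79 in size (9.36-fold to 27.6-fold). These folds are ratios of the measured means, and at 7 genes on each side the lower group was under the level of 6. With such groups set to 6, the folds were at least 8.10 to 82.2 on the podocyte side and at least 3.26 to 26.9 on the PEC side, where ENSMUSG00000052485 then had the largest. The cell types were also called apart in RPMI in the same direction at 14 of the 15 higher and 13 of the 15 lower genes. The difference changed with the medium at 9 of the 15 higher genes, and it was larger in EGM-MV at 8 of these. Among the lower genes it changed at 3 of 15, and was larger in EGM-MV at 3. Over all genes, 2.99% had a called interaction. The genes were ranked on the EGM-MV difference, which favours a larger difference there and a called interaction, so these counts are a description. The higher gene without a called difference in RPMI, ranked 12, differed by 4.13 in EGM-MV and by 0.44 in RPMI (adjusted p = 0.423, interaction adjusted p = 0.0134). On the PEC side, the gene ranked 12 differed by −3.28 in EGM-MV and by −0.05 in RPMI (interaction adjusted p = 0.000641). PEC cultures differed from each other by at least 2-fold at 2 of the 15 genes on each side.

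The differences in EGM-MV were set beside those in RPMI. Of the 7151 genes called in EGM-MV, 4553 were called in the same direction in RPMI, 92 in the opposite direction, and 2506 were not called there. The RPMI arrays came from the same cultures, and a gene called in one medium only is not thereby shown to differ between media. By the interaction term, the difference itself changed at 664 genes (2.99% of those tested), at 329 upward in EGM-MV (1.48%) and at 335 downward (1.51%). The media of a culture share that culture, and the replicate differences of the PECs correlated at r = 0.53 between media across genes (0.07 in podocytes). With culture as a random block 1235 genes were called, and with the methods' t-test after Benjamini-Hochberg adjustment 1. Of the 7151 called genes, 535 (7.48%) had a called interaction. The EGM-MV arrays enter both tests, so a share above 2.99% partly follows from the choice of these genes. At 241 of the 535 the difference was larger in EGM-MV, at 102 it was smaller, and at 192 it had the opposite sign in RPMI. The number of interaction calls also depended on single arrays. Without podocyte EGM-MV replicate 1 or 2 149 or 165 genes were called, and without podocyte RPMI replicate 1 or 2 224 or 256 were. Without either podocyte culture in both media 1 was called, and without PEC replicate 1 or 2 in both media 1240 or 1221.

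The larger differences in EGM-MV were also set beside RPMI. The interaction was called at 161 of the 881 genes at least 2-fold higher in podocytes (18.3%) and at 107 of the 696 at least 2-fold lower (15.4%). Of the genes over 4-fold apart it was called at 59 of 166 higher (35.5%) and at 23 of 100 lower (23.0%). The difference was larger in EGM-MV than in RPMI at 48 of the 59 and at 20 of the 23. These genes were chosen for a large difference in EGM-MV, which favours a larger difference there and a called interaction, so the shares are a description.

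The cell type whose level moved with the medium differed between the directions. Among the 59 genes over 4-fold higher in podocytes, the medium effect was larger in podocytes at 50 and in PECs at 9. Among the 23 genes over 4-fold lower in podocytes, it was larger in podocytes at 6 and in PECs at 17. At most of these genes, therefore, the cell type with the higher level in EGM-MV was also the one that moved more between media. The share was not tested, since the same EGM-MV arrays set both the direction and the medium effect. At 7 of the 15 largest differences on each side the lower group was under the level of 6, where a medium effect is hard to see.

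A stricter group of genes set the cell types apart in EGM-MV and hardly in RPMI. At 79 genes podocytes were at least 2-fold higher in EGM-MV, differed by less than 0.5 (log2) in RPMI and had a called interaction, with median sizes of 1.38 and 0.20. The podocyte level moved more with the medium at 67 of these and the PEC level at 12. At 58 genes podocytes were at least 2-fold lower under the same conditions, with median sizes of 1.33 and 0.22, and there the podocyte level moved more at 21 and the PEC level at 37. The cell types were also called apart in RPMI in the same direction at 20 of the 79 and 9 of the 58 genes. At 2 of the 58 they were called apart there in the opposite direction. The number of interaction calls depended on the test and on single arrays, as given above. Both groups of genes were chosen on the values given, which are a description.

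At 4 genes the cell types exchanged places, with a called difference of at least 2-fold in each medium and in opposite directions. Podocytes were the higher cell type in EGM-MV at 3 of them. The largest such turn was at a gene with 5.76 and 6.10 in PECs and 8.72 and 8.68 in podocytes in EGM-MV. In RPMI it measured 9.65 and 9.84 in PECs and 8.33 and 7.78 in podocytes. The podocyte cultures lay between 7.78 and 8.72 in both media, while the PEC cultures were lower in EGM-MV. The differences were 2.77 in EGM-MV and −1.69 in RPMI (interaction 4.46, adjusted p = 0.000677).

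**Figure D4:**
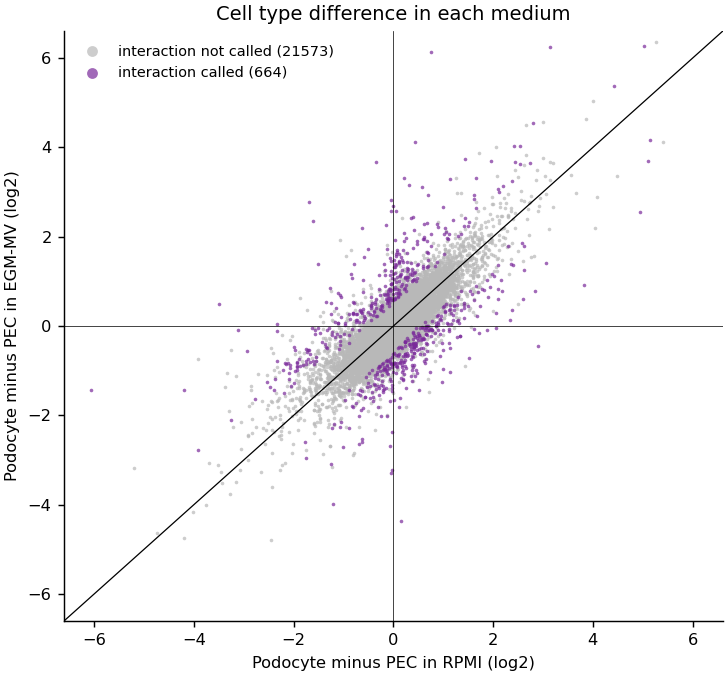
Podocyte minus PEC difference in EGM-MV against the same difference in RPMI (both log2), 1 point per gene, with the line of equal difference. Purple points are the 664 genes with a called interaction, and points near the vertical line at 0 and far from it in height are genes that separated the cell types in EGM-MV and hardly in RPMI.

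The PEC cultures were less alike than the podocyte cultures. At 64.7% of genes the spread between cultures was smaller in podocytes. At the 187 genes where the PEC cultures were at least 2-fold apart in EGM-MV, culture 3 was higher at 114 and culture 2 at 73, and the cultures stood in the same order in RPMI at 173. The podocyte mean was above both PEC cultures at 60, below both at 71 and between them at 56 of these genes. It was closer to PEC culture 3 at 120 and to PEC culture 2 at 67. Of the 187 genes, 65 were called between the cell types, a share near the 32.2% of all genes. The gene ranked 9 on the PEC side was one of them, with PEC cultures at 8.68 and 10.10 and podocytes at 5.78 and 5.80, and its difference of −3.60 had an SE of 0.62 (limma adjusted p = 0.00355).

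Cell cycle genes could be followed by Ensembl ID. Cells duplicate their DNA in S phase, prepare division in G2 and divide in M, and G1 is the gap before S. Lists for G1, S and G2/M were built from published phase markers of mouse embryonic stem cells, so their phase holds for that cell type and may not in kidney cells. Of the 97 G1, 64 S and 81 G2/M genes, 93, 62 and 78 were measured, and 90, 61 and 76 reached the level of 6 in either cell type.

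G2/M genes were mostly lower in podocytes. In EGM-MV 42 of the 78 were called lower (53.8%, beside 15.5% of all genes), 11 were called higher (14.1%, beside 16.6%) and 25 were not called. Of all genes at 6 or above in either cell type, as nearly all members of the 3 lists were, 23.1% were called lower and 27.8% higher. The median difference over the list was −0.39, beside −0.05 over all genes, and single genes ranged from −2.20 to 1.06. The list's median level was 8.65 and 8.51 in PEC cultures 2 and 3 and 8.21 and 8.19 in podocyte cultures 2 and 3, so both podocyte cultures lay below both PEC cultures. At 48 genes (61.5%, beside 41.3% of all genes) both podocyte arrays were below both PEC arrays. At least 2-fold differences were found at 12 lower and 2 higher genes, beside 696 lower and 881 higher of all 22237 genes. Without podocyte replicate 1 or 2 in both media, 27 or 25 were called lower and 2 or 4 higher. Without podocyte EGM-MV replicate 1 or 2 alone, 5 or 6 were called higher.

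The lowest G2/M gene measured 9.24 and 9.16 in PECs and 6.98 and 7.03 in podocytes, 4.58-fold lower in podocytes (limma adjusted p = 0.000105). The next was at 10.09 and 9.99 in PECs and at 8.16 and 8.21 in podocytes, 3.62-fold lower. The highest was at 8.23 and 8.51 in PECs and at 9.50 and 9.36 in podocytes, 2.08-fold higher (limma adjusted p = 0.00265). The arrays did not overlap at any of the 3 genes.

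The G2/M difference was smaller in EGM-MV than in RPMI. In RPMI 54 of the 78 genes were called lower and 5 higher, beside 12.8% and 15.5% of all genes, and the median was −0.81, beside −0.05 over all genes. The interaction was called at 22 genes upward, that is toward podocytes in EGM-MV, and at 1 downward, beside 1.48% and 1.51% of all genes. The change lay mostly in podocytes. Their medium effect was called upward in EGM-MV at 50 of the 78 genes and downward at 4, beside 7.7% and 5.99% of all genes. In PECs it was called upward at 10 and downward at 3, beside 7.64% and 4.62%. The list's median level in podocytes was 7.39 and 7.23 in RPMI, and in PECs 8.42 and 8.36. At 41 genes podocytes were called lower in both media, at 1 in EGM-MV only and at 13 in RPMI only. Over all 22237 genes these counts were 1951, 1500 and 904. The interaction calls share the limit given above: over all genes, 1 was called without either podocyte culture.

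More G1 and S genes were called lower than higher, with smaller medians. Over all genes 15.5% were called lower and 16.6% higher, and of those at 6 or above in either cell type 23.1% and 27.8%. Of the 93 G1 genes 33 were called lower (35.5%, above both shares) and 14 higher (15.1%, below both shares), with a median of −0.18. At the remaining 46 no difference was called, and 12 were at least 2-fold lower and 6 at least 2-fold higher. Of the 62 S genes 25 were called lower (40.3%, above both shares) and 15 higher (24.2%, above the 16.6% and below the 27.8%), with a median of −0.22. At the remaining 22 no difference was called, and 8 were at least 2-fold lower and 2 at least 2-fold higher. Over all 22237 genes, 696 were called at least 2-fold lower and 881 at least 2-fold higher. Without podocyte replicate 1 or 2 in both media 7 or 6 S genes were called higher, without podocyte EGM-MV replicate 2 alone 9 were, and the G1 counts fell to 9 higher without podocyte replicate 1 and to 21 lower without replicate 2 in both media. In RPMI 32 G1 genes were called lower and 11 higher, and 26 S genes lower and 9 higher, beside 12.8% and 15.5% of all genes. The interaction was called at 0 G1 genes and at 6 S genes, all upward in EGM-MV (limma, 2.99% of all genes in both directions). The median level of the G1 list in EGM-MV was 8.65 and 8.59 in PECs and 8.52 and 8.56 in podocytes. That of the S list was 8.36 and 8.24 in PECs and 8.25 and 8.17 in podocytes, so the cell types overlapped there.

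The extremes of these lists showed both kinds of behaviour. The lowest G1 gene was at 11.20 and 10.75 in PECs and at 9.16 and 8.98 in podocytes, 3.74-fold lower, and its RPMI difference of −2.09 was similar in size to −1.90 in EGM-MV (interaction adjusted p = 0.849). The highest G1 gene was at 10.33 and 10.18 in PECs and at 11.89 and 11.80 in podocytes, 3.02-fold higher. The highest S gene was at 11.19 and 10.87 in PECs and at 12.67 and 12.59 in podocytes, 3.04-fold higher, and it differed by 0.12 in RPMI (interaction adjusted p = 0.00609).

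**Figure D5:**
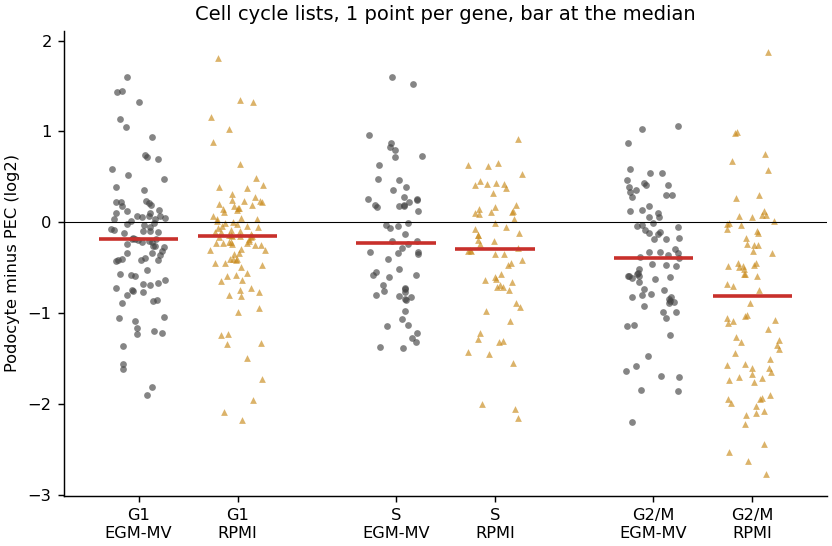
Podocyte minus PEC difference (log2) of the measured genes of the G1, S and G2/M lists in EGM-MV (circles) and RPMI (triangles), 1 point per gene, with a red bar at the list's median. The medians in EGM-MV are −0.18, −0.22 and −0.39, and that of the G2/M list in RPMI is −0.81.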

How the data were processed

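RNA of 2 podocyte and 2 PEC cultures, each kept in both media, was hybridised to 8 Affymetrix Mouse Gene ST arrays, in 4 groups of 2. Deposited log2 values were made by the authors in JMP Genomics from probe sets redefined to 1 per Ensembl gene, with RMA background correction, quantile normalization and removal of outlying data points (RMA version: not given in the sources used here). Array number, not read depth, limits the precision.

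The normalized table (22237 genes) gave the main values. A second table of the same arrays (22215 genes, greatest difference 0) was used where a labelled replicate number was needed, and lacks 22 genes. Group means of all 8 arrays were fitted with limma 3.58.1 (lmFit, eBayes) in R 4.3.3, with 4 residual degrees of freedom. Contrasts were podocyte minus PEC in each medium, the interaction (EGM-MV minus RPMI difference) and the medium effects. P-values were two-sided, Benjamini-Hochberg adjusted over all genes, and called below 0.05. The fit was tested on simulated data.

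The members and lists were chosen with earlier results of these data known. Named genes were to be the 15 largest called differences in each direction with a symbol, a mean of at least 6 in the higher group and no overlap of arrays, plus members of 31 symbol lists. As 0 IDs matched a symbol in the mouse gene table used (GRCm38.p6), the symbol condition was dropped, IDs were limited to 2 per direction, and the symbol lists were not tested. The cell cycle lists came from the mouse marker pairs of scran 1.30.0. A gene was kept with at least 10 pairs in its phase, first place in at least 90% of them, and first place in at most 50% in any other phase where it had at least 10 pairs. The lists share 0 genes.

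Alternatives were a fit of the EGM-MV arrays alone, the replicate number as a block, culture as a random block, the methods' t-test, eBayes with trend and robust settings, omission of dim genes, repeated quantile normalization, median centring, the second table, and omission of single arrays. Omission of 1 culture in both media was chosen after seeing the data.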

Additional observations from a re-analysis of the deposited data

Results flagged for a closer look

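The podocyte minus PEC difference changed between RPMI and EGM-MV at 664 genes by the limma interaction term, which tests the change itself. The count depended on the test. It was 1 with the methods' t-test after Benjamini-Hochberg adjustment and 1235 with culture as a random block. Of the 4 genes named by ID, ENSMUSG00000023959 was the one with a called change, by 1.23 on the log2 scale (adjusted p = 0.0186). The PEC level of this gene was lower in EGM-MV (6.73 and 6.31) than in RPMI (7.49 and 7.42), and the podocyte levels were 12.78 and 12.79 in EGM-MV and 12.43 and 12.54 in RPMI.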

How the results depend on the processing

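The 4 genes named by ID kept their direction and their call under all 21 alternatives. Leaving out single arrays gave 5.92 to 6.80 for ENSMUSG00000023224, 6.05 to 6.48 for ENSMUSG00000023959, −4.81 to −4.77 for ENSMUSG00000040405 and −4.83 to −4.67 for ENSMUSG00000052485.

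The 7151 calls in EGM-MV became 7140 with the EGM-MV arrays alone, 5033 with the methods' t-test after Benjamini-Hochberg adjustment (2184 at the methods' own threshold, 1281 higher and 903 lower), 6673 of 12722 with dim genes left out, and 4432 to 7429 without single arrays. Without podocyte replicate 1 or 2 in both media, they were 3427 or 3591. Those at least 2-fold apart ranged from 1469 to 1783 without single arrays. The share of calls higher in podocytes was 51.7%, and 49.2% to 55.3% under the alternatives.

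Interaction calls were 664, and 1235 with culture as a random block, 1 with the methods' t-test (2950 at an unadjusted p below 0.05), and 149 to 651 without single arrays. They were 1240 or 1221 without PEC replicate 1 or 2 in both media, and 1 without either podocyte replicate in both media. The cause was not tested. The replicate number did not pair PECs with podocytes (r = 0.04 between the replicate differences of the cell types across genes). As a block it gave 7486 calls, 1597 at least 2-fold apart and 821 interaction calls, and it left the calls of the 4 named genes unchanged.

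Of the list counts, G2/M genes called higher moved by over 1.5 times under 5 of 21 alternatives, S genes called higher under 3, G2/M genes called lower under 2, and G1 genes called lower or higher under 1 each. The number of cultures, 2 per cell type, limits the precision.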
